A study of Mus musculus with 6 samples.

Results

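The 29 genes described here had some of the lowest transcript levels in mouse mammary epithelial cells (MECs) without oestrogen receptor α (ERα), relative to their levels in MECs with the receptor. They were chosen on their values: a mean raw count of at least 20 reads in WT.GFP+ MECs, a mean count in ERα−/−.GFP+ MECs below 0.20 of that, and a symbol outside a set of gene families left out by name, such as cadherins, solute carriers, keratins, collagens and transcription-factor families. Of the 651 genes in the deposited lists of differentially expressed genes, 85 had a higher and 566 a lower level when ERα was missing. Of 517 listed genes with the required count and outside the families, the 29 members made up 5.61%, a share that follows from the rule. The size of their reduction is therefore a description and was not tested.

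RNA was sequenced from 3 WT.GFP+ and 3 ERα−/−.GFP+ samples. Both genotypes were grafted intraductally, each on its own side of the body, into NSG mice. This immunodeficient strain has no mature T, B or NK cells. GFP+ cells were sorted from the pregnant hosts. The sorted cells are called MECs here, as in the study, and their make-up by cell type was not tested. ERα−/− MECs carry a germ-line deletion of the receptor, and both genotypes carry a GFP transgene under an actin promoter, on a C57Bl6 background. Glands were pooled when cell suspensions were made for sorting, according to the study's methods, so a sample may hold cells of several glands. The ages of donors and hosts, the number of donors and the number of glands in a sample were not given in the sources used here.

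The values used here are the authors' means per genotype of genes past their thresholds, so no spread between samples can be given and no difference was tested. Pairs of read counts are mean counts per sample, WT.GFP+ first and ERα−/−.GFP+ second. Intervals are exact counting intervals at 95%, taken from the reads of the 3 samples added up, and cover counting error only. The deposited columns call the groups selections and not genotypes. Their assignment follows the study's text, so that the direction is not an independent result, and Esr1, the gene of ERα, was in neither list and could not check it. The estimated mean depth was 27190483 reads for the WT.GFP+ samples and 29326709, or 1.08 times as many, for the others, so that unscaled ratios slightly understate the reduction. Scaled for depth, the median ratio of the members was 0.137.

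ERα is a ligand-activated transcription factor that binds DNA at oestrogen response elements or through other factors such as AP-1. In the mammary gland, ERα protein is detected by staining in a subset of luminal cells. The study also found its transcripts in luminal cells without detected protein, and ascribes functions to low ERα levels there. Cells with detected protein signal to neighbouring luminal and basal/myoepithelial cells through secreted factors. Wnt signalling is one of these paracrine routes, and its receptors, the basement membrane and cell adhesion shape the basal layer that surrounds the ducts. The members formed no single pathway, and most were not genes of Wnt signalling or the matrix. By their known functions they comprised 2 Wnt pathway genes, 2 extracellular matrix genes and 7 genes of mostly surface or membrane proteins. Another 4 were genes of cytoskeletal regulators and motor proteins, 4 of enzymes and a lipid droplet protein, and 3 of epithelial or immune proteins. The rest were 2 genes of an RNA-binding and a RING finger protein, and 5 non-coding or uncharacterised genes.

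Added up over the members, the mean counts came to 3059 reads with the receptor (WT.GFP+) and 472 without it (ERα−/−.GFP+), a ratio of 0.154. Scaled to depth as counts per 1000000 reads (CPM), these sums were 112 and 16.1. Their median ratio was 0.148, with a range of 0.0451 to 0.2, and the median over the 511 listed lower genes that reached 20 mean reads was 0.337. The ratio was below 0.10 for 4 members, between 0.10 and 0.15 for 11 and above that for 14. Most members were genes of low counts. Their median in WT.GFP+ MECs was 49.3 reads, against 528 over the same 511 genes, and 19 members were below 60 reads, so the description of the set as well counted holds only for a minority. The 9 members with at least 100 reads, among them Spock3, Frem2, Lgr5, Plin4, 5830411N06Rik, Wfdc12, Cyp24a1 and Brinp3, held 74.5% of the summed reads in WT.GFP+ MECs.

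**Figure D1:**
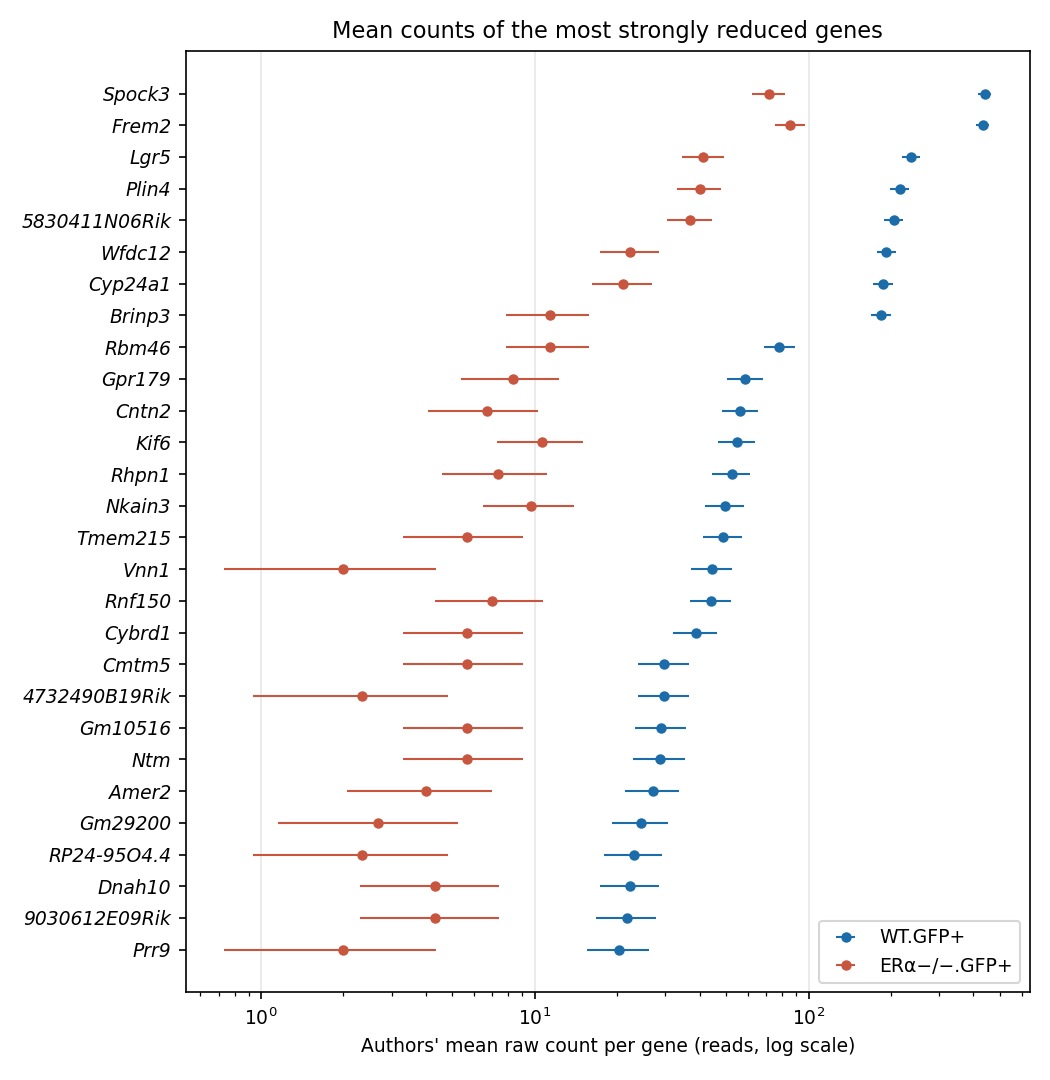
Authors' mean raw counts (reads, log scale) of 28 members in WT.GFP+ and ERα−/−.GFP+ MECs, ordered by the WT.GFP+ mean; bars are exact 95% Poisson counting intervals and do not show the spread between samples. The highest mean was that of Spock3 (441 reads in WT.GFP+) and the lowest WT.GFP+ mean that of Prr9 (20.3 reads); the space between the points of a gene is what the members were selected on.

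Promoter sequences show which members carry the letters of sites that ERα or AP-1 can bind. Sequences from RefSeq (GRCm38.p6), 250 bases before and 50 after each start, were matched by symbol for 20 of the 29 members, in 28 windows. Stretches before the start are given for 4 members, without the bases that fall in the annotated gene. Capitals mark TGACC, the reverse complement of GGTCA, each a single arm of the oestrogen response element, in 5830411N06Rik and Plin4. In Cybrd1 and Prr9 they mark the AP-1 site TGACTCA, and in Cybrd1 also the E-box CAGGTG.
5830411N06Rik (chr7:140247051-140247283, plus strand): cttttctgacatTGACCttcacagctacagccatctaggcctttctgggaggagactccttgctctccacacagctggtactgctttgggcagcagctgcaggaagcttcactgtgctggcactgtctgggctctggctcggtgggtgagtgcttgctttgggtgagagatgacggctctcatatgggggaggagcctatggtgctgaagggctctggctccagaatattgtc
Plin4 (chr17:56109804-56110032, minus strand): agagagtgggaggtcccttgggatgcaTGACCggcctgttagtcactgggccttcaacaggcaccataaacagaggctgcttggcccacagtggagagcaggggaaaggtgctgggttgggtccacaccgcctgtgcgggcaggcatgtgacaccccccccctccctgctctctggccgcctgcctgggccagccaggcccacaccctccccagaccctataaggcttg
Cybrd1 (chr2:71117804-71117922, plus strand): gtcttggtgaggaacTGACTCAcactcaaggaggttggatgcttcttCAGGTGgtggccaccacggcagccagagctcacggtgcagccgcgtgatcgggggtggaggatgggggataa
Prr9 (chr3:92123948-92124197, minus strand): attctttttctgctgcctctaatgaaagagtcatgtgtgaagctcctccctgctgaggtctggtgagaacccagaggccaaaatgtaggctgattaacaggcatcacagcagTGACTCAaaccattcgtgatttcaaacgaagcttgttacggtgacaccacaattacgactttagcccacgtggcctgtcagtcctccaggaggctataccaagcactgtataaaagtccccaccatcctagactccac

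The full palindromic oestrogen response element, GGTCA and TGACC 3 bases apart, was in 0 of the 28 member windows. The windows came from 20 genes, and those of 1 gene can overlap, so they are not independent. The palindrome was in 0 of 501 windows of the other listed lower genes and in 0.0700% of all 32851 windows. A single arm, GGTCA or TGACC, lay in 9 windows of 7 members (32.1%), against 39.3% of the windows of other listed lower genes and 40.5% of all windows. Those 7 members were 4732490B19Rik, 5830411N06Rik, Amer2, Kif6, Ntm, Plin4 and Spock3. The AP-1 site, TGACTCA or TGAGTCA, was in 2 windows (7.14%), 235 bases before the RefSeq start of Cybrd1 and 138 before that of Prr9. In Cybrd1 the last 131 bases before this start fall in the annotated gene and are left out of the stretch above. The site was in 5.59% of the windows of other listed lower genes and in 5.20% of all windows. The E-box, CACCTG or CAGGTG, was also in 2 windows, those of Amer2 and Cybrd1, against 22.6% and 20.2%. CATG, the core of p63-type sites, was in 50% of member windows, 46.9% of those of other listed lower genes and 61.1% of all. CC followed by GG 6 bases on, which every CArG box of the serum response factor contains, was in 92.9%, 85.0% and 73.3% in the same order. All motifs were searched on both strands, and each full palindrome also counts as single arms. The member windows held a median of 6 CpG dinucleotides, with a range of 1 to 38, against 14 in other listed lower genes and 7 in all windows. The motif matches are letters in these windows, not binding sites.

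The 2 Wnt pathway members act at different levels of the pathway. Lgr5, a receptor for R-spondins that amplifies Wnt signals and marks stem cells in several epithelia, had mean counts of 237 (WT.GFP+) and 41.3 reads (ERα−/−.GFP+), a ratio of 0.175 with a counting interval of 0.143 to 0.212. The gene spans chr10:115450311-115587780 on the minus strand (GENCODE M21, GRCm38). Amer2, which recruits APC to the plasma membrane, had 27 and 4 reads and a ratio of 0.148. Of 38 Wnt pathway genes in a list written with earlier results of these data known, Lgr5 was the only member, 7 others were listed as lower and 30 were in neither list; Amer2 was not in that list. The related receptor Lgr6 had a higher ratio, with 1750 and 726 reads and a ratio of 0.415. The receptor Fzd7 had 1817 and 492 reads (ratio 0.271) and the ligand Wnt10a 266 and 75 (ratio 0.282). Dkk1, a secreted Wnt inhibitor, had 11.7 and 1.33 reads and missed the count limit.

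Spock3 and Frem2, the matrix members, had the highest counts of the set. Spock3 encodes testican-3, a secreted proteoglycan, on chr8:62951009-63357103. It had 441 and 71.7 reads, and its ratio of 0.162 had an interval of 0.140 to 0.188, wholly below 0.20. Frem2, a basement membrane protein of the Fraser complex that holds epithelia to the underlying stroma, spans chr3:53513938-53657355 and had 434 and 85.7 reads. Its ratio of 0.197 lay just inside the limit, with an interval of 0.172 to 0.226. Of 36 matrix glycoprotein and matricellular genes, these 2 were members, Matn4 (151 and 50.3 reads) and Smoc1 (84.7 and 30 reads) were listed as lower, and 32 were in neither list.

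The lowest ratio among the members with at least 100 reads was that of Brinp3, a secreted or membrane-associated protein best known from the nervous system. It had 184 and 11.3 mean reads, a ratio of 0.0616 with an interval of 0.0422 to 0.0871, or 16.2-fold lower. The gene spans chr1:146494760-146902472. The other members of this group of mostly surface or membrane proteins were counted less deeply. Cntn2 and Ntm, both adhesion molecules of the immunoglobulin superfamily held by a GPI anchor, had 56.3 and 6.67 reads and 28.7 and 5.67 reads, with ratios of 0.118 and 0.198. Tmem215, a membrane protein, had 48.7 and 5.67 reads (ratio 0.116). Gpr179, an orphan receptor of retinal bipolar cells, had 58.7 and 8.33 reads (ratio 0.142). Nkain3, which belongs to a family of proteins that interact with the sodium pump, had 49.3 and 9.67 reads (ratio 0.196). Cmtm5, a MARVEL-domain protein, had 29.7 and 5.67 reads (ratio 0.191). Several of these genes are known from neural tissue. Of 12 Schwann cell and neural markers, 0 were in either list, which says only that none passed the authors' thresholds, and the part of such cells in these values was not tested.

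Cyp24a1, the mitochondrial 24-hydroxylase that inactivates vitamin D hormone and a classical target of the vitamin D receptor, had 187 and 21 mean reads. Its ratio was 0.112, with an interval of 0.0853 to 0.146, and the gene lies at chr2:170482708-170497145. Vnn1, a GPI-anchored pantetheinase that releases cysteamine, had the lowest ratio of all members at 0.0451. Its mean counts were 44.3 and 2 reads, the latter 6 reads in all over the 3 samples, so that the interval reached from 0.0163 to 0.101. Plin4, a perilipin that coats lipid droplets, had 215 and 40 reads (ratio 0.186). None of 7 adipocyte markers was in either list, and the part of such cells was not tested. Cybrd1, a ferric reductase of the plasma membrane, had 38.7 and 5.67 reads (ratio 0.147).

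Wfdc12, a small secreted protein of the whey acidic protein family with antiprotease and antibacterial activity, had 193 and 22.3 reads, a ratio of 0.116 with an interval of 0.0886 to 0.149. Per length it was the most abundant member, with 249 reads per kb of exon in WT.GFP+ MECs, before Spock3 at 73.0 and Cyp24a1 at 52.4, and down to 1.39 for Dnah10. Wfdc12 lies at chr2:164189231-164190608 within A730032A03Rik on the opposite strand, and 16.1% of its exon bases are shared with exons of that gene. Prr9, a proline-rich gene of the epidermal differentiation region, had 20.3 and 2 reads (ratio 0.0984) and was the member closest to the count limit. Of 16 keratinocyte and squamous markers, 4 were listed as lower and none was a member. 5830411N06Rik, also named Scart2, encodes a scavenger receptor known from γδ T cells that make IL-17, and had 205 and 37 reads (ratio 0.181, interval 0.146 to 0.222).

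Markers of lymphocytes were listed in both directions beside 5830411N06Rik. Of 10 markers of type 3 lymphocytes, Il17f (27.3 and 3.67 reads) and Il23r (113 and 20.3 reads) were lower, both in families left out by name, and 8 were in neither list. Of 16 T-cell markers 6 were higher in the ERα−/−.GFP+ samples and none lower, and their summed mean counts were 24027 and 54395. Of 11 cytotoxic markers 7 were higher and none lower, with sums of 60790 and 150167. Whether the reads of these markers and of 5830411N06Rik came from MECs or from other GFP+ cells was not tested. The part of such cells in the reduction of 5830411N06Rik was not tested either.

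The cytoskeletal regulators and motor proteins had ratios of 0.140 to 0.195. Rhpn1, a scaffold protein, had 52.3 and 7.33 reads (ratio 0.140). Kif6, a kinesin, had 54.7 and 10.7 reads (ratio 0.195), and Dnah10, a heavy chain of axonemal dynein, had 22.3 and 4.33 reads (ratio 0.194). Rbm46, an RNA-binding protein known from germ cells, had 78.3 and 11.3 reads (ratio 0.145). Rnf150, a RING finger protein, had 44 and 7 reads (ratio 0.159).

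The remaining 5 members were sparsely counted. The long non-coding RNA 4732490B19Rik had 29.7 and 2.33 reads (ratio 0.0787). The antisense gene Gm10516 had 29 and 5.67 reads (ratio 0.195) and shares 12.1% of its exon bases with Rcor3 on the opposite strand. Gm29200 had 24.3 and 2.67 reads (ratio 0.110) and lies within Lama3, a laminin chain gene of the opposite strand with which it shares 18.2% of its exon bases. Lama3 itself was listed as lower, with 2699 and 705 reads and a ratio of 0.261. RP24-95O4.4, named Gm42440 in GENCODE, had 23 and 2.33 reads (ratio 0.101). It lies on the same strand within Auts2 and shares 0% of its exon bases with exons of other genes. Auts2 had 1481 and 551 reads (ratio 0.372). The libraries did not mark strand, and the counting strand was not given. Reads of a member and those of a gene on the opposite strand therefore cannot be told apart where exons overlap. This concerns 9 members, of which Gm10516, Gm29200 and Wfdc12 shared more than 10% of their exon bases. The smaller overlaps were those of Rnf150 (4.54%), Cyp24a1 (2.33%), Brinp3 (2.30%), Dnah10 (1.17%), Kif6 (1.03%) and Plin4 (0.294%). Whether reads from introns of a surrounding gene were counted for a member was not tested. This concerns RP24-95O4.4 within Auts2, Gm29200 within Lama3 and Wfdc12 within A730032A03Rik. It also concerns Prr9, which lies within AC138676.1 on the same strand. 9030612E09Rik, an uncharacterised coding gene, had 65 and 13 reads over the 3 samples of each genotype. Its ratio of whole reads was exactly 0.2, and it met the rule only because the deposited means are rounded to 4 decimals.

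The values ran on across both limits of the rule. Just outside the ratio limit were Otoa (83.3 and 16.7 reads, ratio 0.2), Cma1 (48 and 9.67 reads, ratio 0.201) and Adamts20 (131 and 27 reads, ratio 0.206), and just inside were Frem2, Ntm and 9030612E09Rik. Just below the count limit were RP24-340K5.2 (18.7 and 2 reads), Agbl2 (18 and 2 reads) and Ascl2 (17.7 and 1.67 reads), and just above were Prr9, 9030612E09Rik and Dnah10. Another 6 genes met both limits and were left out by family, namely Cdh6, Mkx, Trpm3, Trpv6, Il17f and Il23r, with ratios of 0.134 to 0.180. Counting intervals lay wholly below 0.20 for 9 members and reached it for 20, and 14 members rested on at most 20 reads in all in the ERα−/−.GFP+ samples.

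Among the 517 listed genes outside the families left out by name, the share that met the rule was smaller the higher the WT.GFP+ count. It was 42.9% of 35 such genes with 20 to 50 reads, 12.8% of 39 with 50 to 100, 5.96% of 151 with 100 to 500 and 0 of 292 with at least 500, where the lowest ratio was 0.211. The median ratio of the lower genes among them was higher at higher counts, from 0.233 in the first class to 0.287 in the next, 0.329 in the third and 0.388 in the last. Only genes past the authors' thresholds are in the list, and the part of those thresholds in this trend was not tested.

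**Figure D2:**
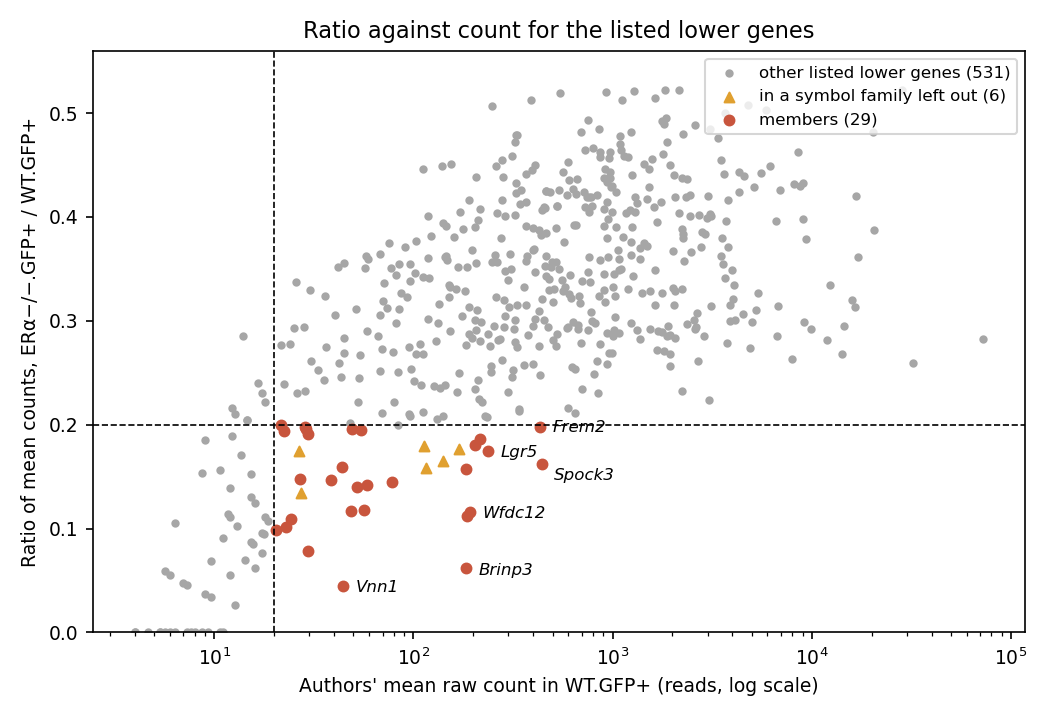
Ratio of mean counts (ERα−/−.GFP+ over WT.GFP+) against the authors' mean raw count in WT.GFP+ MECs (reads, log scale) for all 566 listed lower genes; dashed lines mark the limits of 0.20 and 20 reads. The 29 members fill the lower left below 500 reads, the 6 triangles met both limits but belong to families left out by name, and none of the genes with at least 500 reads had a ratio below 0.211.

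The deposited mean log2 CPM gave a second reading of the same samples. A mean of logs weighs each sample alike, and a mean of counts gives most weight to the sample with the most reads. The log2 CPM also hold an added amount, since they were finite for genes with 0 reads, such as Megf10 (10.7 and 0 reads). Its size was not given in the sources used here, and it changes CPM ratios most at low counts. On this scale 25 of the 29 members were still below 0.20 and their median ratio was 0.145. The 4 above it were Frem2 (0.225), Cmtm5 (0.223), Nkain3 (0.212) and Dnah10 (0.202). Applied to all 517 genes, the limit took in 36 genes on this scale (6.96%), 11 of them not members. Against the count ratio scaled for depth, the CPM ratio was lower for some members and higher for others. Among the lower were Brinp3 (0.0331 against 0.0571), Cyp24a1 (0.0808 against 0.104), Wfdc12 (0.0873 against 0.107) and Spock3 (0.130 against 0.151). Among the higher were Frem2 (0.225 against 0.183) and Cmtm5 (0.223 against 0.177).

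**Figure D3:**
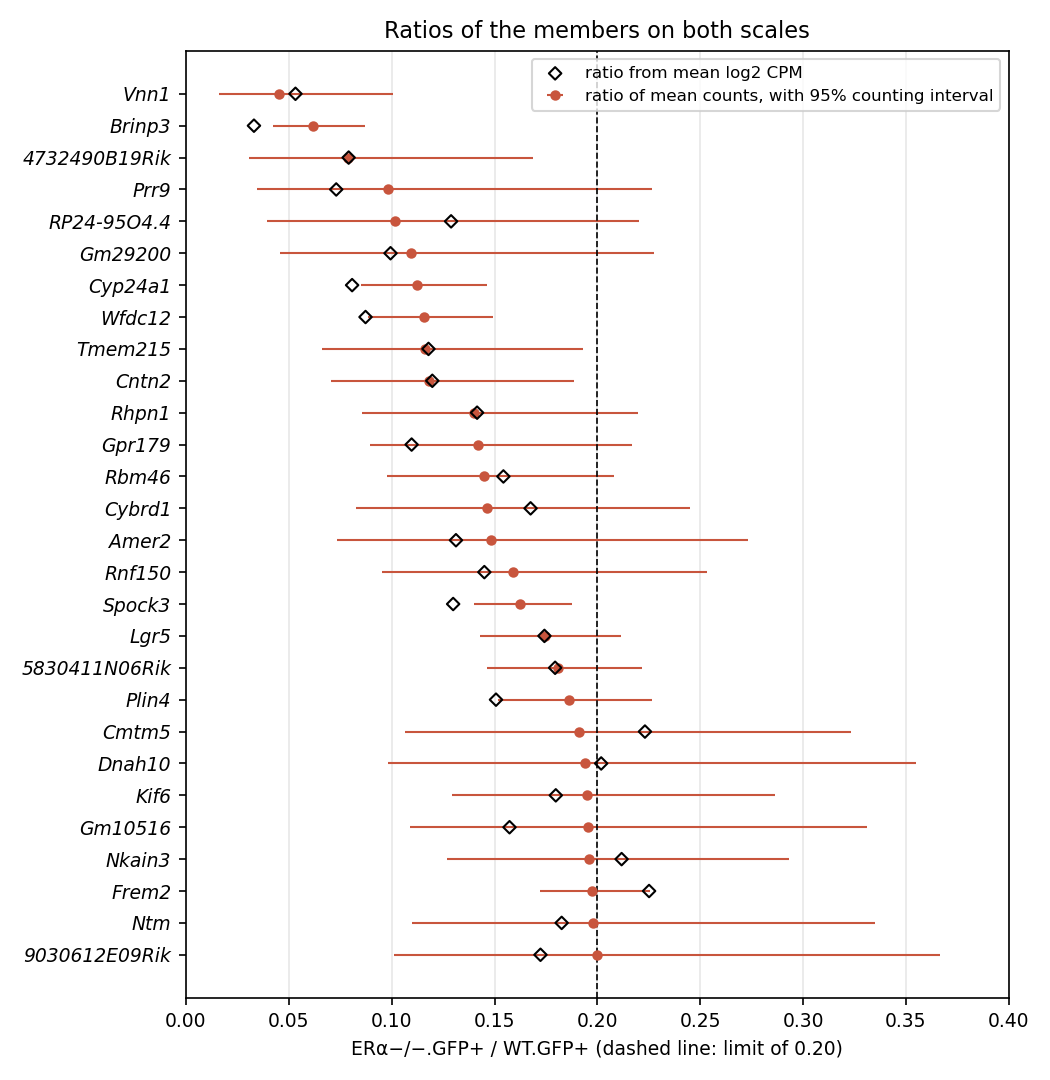
Ratios of ERα−/−.GFP+ over WT.GFP+ for 28 members, from mean counts (filled points, with exact 95% counting intervals) and from mean log2 CPM (open diamonds); the dashed line is the limit of 0.20. The filled points are not scaled for depth. The diamonds of Brinp3, Cyp24a1, Wfdc12 and Spock3 are among those that lie left of their points, and those of Frem2, Cmtm5, Nkain3 and Dnah10 lie right of the limit.

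A gap between both means was taken for each gene. It is the log2 of the mean count, scaled to CPM by the estimated depth of the genotype, minus the mean log2 CPM. The gap grows when reads are unevenly divided among the 3 samples of a genotype. It also depends on unequal depths of these samples and, at low counts, on the amount added before the log. In ERα−/−.GFP+ MECs the gap was 0.92 log2 units for Brinp3, 0.53 for Cyp24a1 and 0.51 for Prr9, and these 3 members were the only ones above 0.5. Prr9 rested on 6 reads there, while Vnn1, also with 6 reads, had a gap of -0.13. In WT.GFP+ MECs no member was above 0.5, and the widest gaps were those of Tmem215 (0.40), Frem2 (0.37) and RP24-95O4.4 (0.35). The median gap of the members was 0.14 with the receptor and 0.07 without it, against 0.01 and 0.02 over the listed lower genes with at least 20 reads. Depth was estimated from listed genes with at least 1000 reads, which centres the gaps of such genes by construction. The comparison is therefore partly fixed. Which sample held the larger part of the reads cannot be read from the means.

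**Figure D4:**
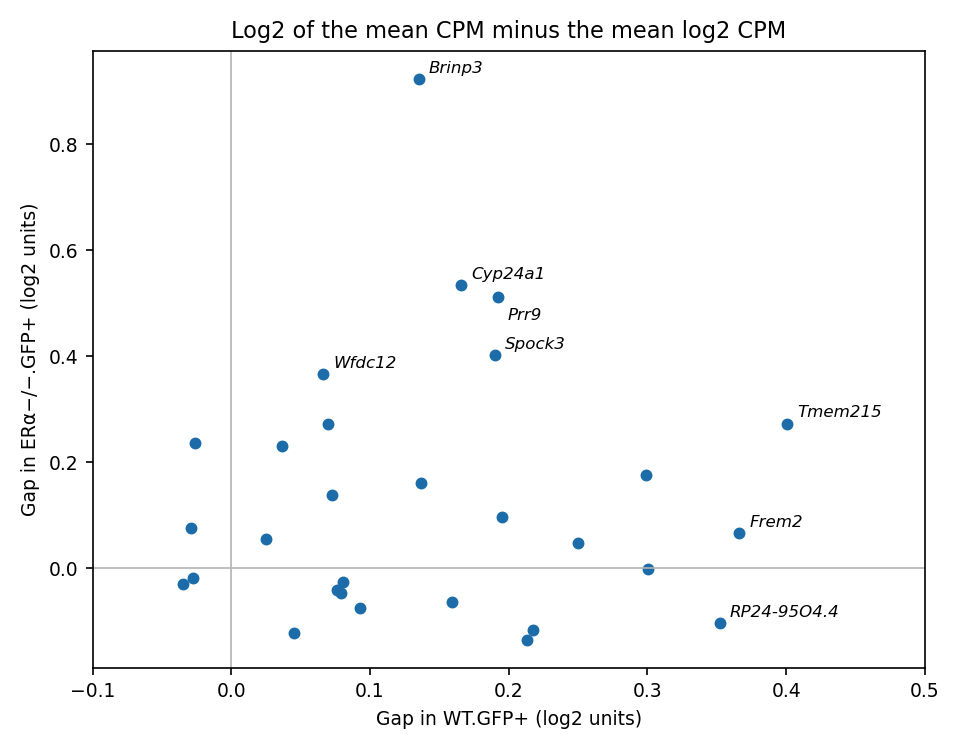
Gap between the log2 of the mean count, scaled to CPM by the estimated depth, and the mean log2 CPM (log2 units). Each member is shown in WT.GFP+ (horizontal) and ERα−/−.GFP+ MECs (vertical). Brinp3, at 0.92 in ERα−/−.GFP+ MECs, lies above all others, followed by Cyp24a1 (0.53) and Prr9 (0.51).

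The members were spread over 15 chromosomes, and 25 of 29 were protein coding. Members spanning more than 200 kb were Ntm (968 kb), Nkain3 (660 kb), Brinp3 (408 kb), Spock3 (406 kb), Kif6 (295 kb) and Rnf150 (228 kb), 20.7% of the set, against 14.5% of the other listed lower genes. The median span of the coding members, 33.8 kb, was close to the 33.6 kb of 488 other listed lower coding genes. Another listed lower gene lay within 100 kb of 7 members (24.1%) and of 20.9% of the other listed lower genes. Besides Gm29200 and RP24-95O4.4 these were Gpr179 near Arhgap23, Rnf150 near Tbc1d9, Cmtm5 near Slc22a17, Gm10516 near Kcnh1 and 9030612E09Rik near Sobp.

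Of 453 genes in 28 lists of cell types and pathways, Lgr5, Spock3 and Frem2 were members. The other listed lower genes numbered 537 against 29 members. A low number of members in these lists is therefore not a trait of the set. Lgr5 was also in the list of 24 basal and myoepithelial markers, of which 17 others were listed as lower, none as higher and 6 were in neither list. The summed mean counts of the listed basal markers came to 192570 with and 54563 reads without the receptor, and their median ratio was 0.292, with Lgr5 the lowest at 0.175. None of 16 luminal, 12 milk and alveolar, 9 fibroblast and 9 endothelial markers was in either list. Of 11 hormone-sensing markers, Pgr was the only one listed (129 and 36.3 reads, ratio 0.281). The part of the basal markers in the reductions of the members was not tested, and in sorted bulk samples fewer cells of a type and less RNA per cell cannot be told apart.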

How the data were processed

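MECs were sequenced in 3 WT.GFP+ and 3 ERα−/−.GFP+ samples as single-end reads from an ultra-low-input oligo-dT kit that marks no strand. Reads were aligned to mm10 with HTSstation, and the authors compared the genotypes with edgeR in the ASAP pipeline after leaving out the genes of lowest expression. The counter, the annotation and the use of strand were not given in the sources used here. For each gene past their thresholds the authors deposited a mean of raw counts and a mean log2 CPM per genotype. The deposited fold changes, p-values and FDR hold the study's own comparison and were not used.

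Ratios were taken from the deposited mean counts, whose 3-fold values were whole reads to within 0.0001. Depth was the median of mean count over CPM for genes that reached 1000 mean reads (220 in WT.GFP+, 140 in ERα−/−.GFP+). The CPM was taken back from the mean log2 CPM. Counting intervals were exact Poisson for means and exact binomial (Clopper-Pearson) for ratios. PCR reads without molecular identifiers are not independent molecules. Positions came from GENCODE M21 (650 of 651 genes matched by identifier), and promoters from RefSeq. RefSeq promoters of Vnn1, Cyp24a1, RP24-95O4.4, Gm29200, Rhpn1, Rnf150, Lgr5 and Nkain3 were not used here. All members were named but 1, which is not reported here and enters only counts, sums and medians. Members and lists were chosen with earlier results of these data known. Other limits, the CPM scale, an added read and windows before the start were tried as alternatives. Scripts ran in Python 3.11.15 with scipy 1.17.1, pandas 2.3.3, numpy 2.4.6 and, for figures, matplotlib 3.10.9, and were checked on simulated data.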

Additional observations from a re-analysis of the deposited data

How the results depend on the processing

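The number of members followed the limits: 65 genes met a ratio limit of 0.25 and 15 a limit of 0.15, while 14 met a minimum of 50 reads and 48 a minimum of 10. With 1 read added to both means 22 remained, and the ratio from whole reads, an alternative chosen after seeing the data, kept 28, without 9030612E09Rik. The median ratio was 0.145 to 0.164 under the CPM scale, an added read or a minimum of 50 reads, and the ratio of sums was 0.153 without Spock3. Restricting the member windows to bases before the start lowered the share with a single arm of the oestrogen response element from 32.1% to 17.9%. The shorter window was not searched in other genes, so this lower share has no background beside it. Of 22 alternatives, 4 moved the number of members by more than 1.5 times, namely the other ratio limits and count minimums. The remaining 18, among them the added read, whole reads and windows before the start, stayed within 1.5 times the count of members or within the counting intervals. Leaving out replicates and other normalizations need values of single samples and were not run. No paired analysis was possible because the values are means per genotype and the labels share only 1 replicate number, 2. Depth limits many members: 14 of 29 had at most 20 reads in all in ERα−/−.GFP+ MECs.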
